A study of Homo sapiens with 17 samples.

Results

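The 39 leukocyte signalling and cytoskeleton genes described here encode proteins that blood cells use to pass signals from their surface receptors to the actin cytoskeleton. The list named the genes by symbol. All 39 were found, among 58302 identifiers in 13 libraries with read counts and among 28285 identifiers in 4 libraries with TPM values. The 17 libraries came from the established human embryonic stem cell line H1, turned into endothelial cells and sorted for eGFP that reports GATA2, a factor of blood-forming endothelium and of the stem cells it yields. The groups with vitamin C come from endothelium that was derived in its presence (Vc+), and those without vitamin C from endothelium derived in its absence (Vc-). Whether vitamin C stayed in the medium after re-plating is not given in the sources used here. In the re-plating course, 5 libraries with vitamin C and 5 without were taken at 0, 24, 36, 48 and 60 h, 1 library for each combination. The 0 h libraries hold the endothelium itself, and the later ones a mixture of endothelial and blood cells. Another 3 libraries came from cultures with vitamin C: suspended blood cells at 96 h, suspended blood cells at 60 h, and at 60 h the adherent cells, again a mixture of endothelial and blood cells. In the 4 remaining libraries the sorted endothelium was read directly, with 2 libraries per condition. All cells derive from 1 line, and the labels do not say whether libraries came from separate cultures, so p-values measure the spread between these libraries only.

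In leukocytes, SRC-family kinases such as LYN and FGR phosphorylate tyrosines on receptors, the kinases SYK and BTK are drawn in, and adaptors such as LCP2 (SLP-76) assemble the signal with the exchange factor VAV1 and the phospholipase PLCG2. The phosphatases PTPRC (CD45) and PTPN6 (SHP-1) set the strength of that signal. VAV1 and DOCK2 load the small GTPase RAC2, and RAC2, the WAVE complex member NCKAP1L and the Wiskott-Aldrich protein WAS turn it into actin growth. When blood forms from endothelium, flat junction-bound cells round up and detach, and genes of this kind become part of the new cell's equipment.

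One sequence feature that the list did not use was common in promoters of these genes. RefSeq promoters (GRCh38.p14, 250 bases before to 50 after a transcript start) were at hand for 29 of the 39 genes, with 43 promoters in all. The letters GAGGAAG, a form of the site bound by PU.1 and other ETS factors, stood on either strand in 17 of the 43 promoters (39.5%) and in 13.6% of all 35116 promoters in the table. By gene, 15 of 29 (51.7%) had it in at least 1 promoter, against 16.1% of 27305 genes. The letters CCGGAAG, the common ETS core, were also searched on both strands and stood in 2.33% of the 43 promoters and in 10.3% of all promoters. TGTGGT, the core that RUNX factors bind, stood in 11.6% of the 43 and in 13.1% of all. AGATAA, a site of GATA factors, stood in 18.6% of the 43 and in 10.3% of all. Both ETS forms end in the same 5 letters, but a run of letters cannot match both at once. A match is a run of letters and not a measured binding site. The 250 bases before the start are printed for 5 genes with a GAGGAAG match, each of which was higher with vitamin C over the course as described further on. Among other genes called higher there, PTPN6 and IKZF1 also held a match, and CYBA, MYO1F and WAS held none. BTK, SYK, PLCG2, DOCK2, DOCK8 and FCGR2A held a match and were not called higher. Whether the match goes with those calls was not tested. Capitals mark matches to the 4 motifs on either strand, so that a match on the other strand appears as its reverse complement.
VAV1 (chr19:6772458-6772707, plus strand): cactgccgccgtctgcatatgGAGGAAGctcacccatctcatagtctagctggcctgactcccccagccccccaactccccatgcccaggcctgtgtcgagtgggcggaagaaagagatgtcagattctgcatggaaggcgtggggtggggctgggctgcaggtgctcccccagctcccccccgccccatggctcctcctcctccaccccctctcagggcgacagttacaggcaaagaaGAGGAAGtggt
LCP2 (chr5:170297778-170298027, minus strand): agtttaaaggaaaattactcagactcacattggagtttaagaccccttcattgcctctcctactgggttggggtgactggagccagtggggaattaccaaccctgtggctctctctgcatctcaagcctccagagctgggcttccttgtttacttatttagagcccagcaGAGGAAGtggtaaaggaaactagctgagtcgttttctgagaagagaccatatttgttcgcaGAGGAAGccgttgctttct
LCP1 (chr13:46182178-46182427, minus strand): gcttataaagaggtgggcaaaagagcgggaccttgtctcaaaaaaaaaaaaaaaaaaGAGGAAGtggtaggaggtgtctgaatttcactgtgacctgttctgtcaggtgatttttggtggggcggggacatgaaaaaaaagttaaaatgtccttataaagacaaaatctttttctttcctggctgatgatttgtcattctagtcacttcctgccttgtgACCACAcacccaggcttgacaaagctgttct
PTPN7 (chr1:202160603-202160852, minus strand): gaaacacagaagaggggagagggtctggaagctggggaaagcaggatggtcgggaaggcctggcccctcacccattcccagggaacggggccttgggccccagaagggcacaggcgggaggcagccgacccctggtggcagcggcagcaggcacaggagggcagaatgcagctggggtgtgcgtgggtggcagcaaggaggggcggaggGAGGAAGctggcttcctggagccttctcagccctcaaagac
CD33 (chr19:51224830-51225079, plus strand): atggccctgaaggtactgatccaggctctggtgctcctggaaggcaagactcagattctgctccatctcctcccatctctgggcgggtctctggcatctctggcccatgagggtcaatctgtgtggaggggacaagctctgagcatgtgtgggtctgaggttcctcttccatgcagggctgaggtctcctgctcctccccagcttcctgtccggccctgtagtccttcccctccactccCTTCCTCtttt
The VAV1 promoter held 2 matches to GAGGAAG, 229 and 11 bases before the start, and the LCP2 promoter also held 2, at 80 and 19 bases. LCP1 had 1 such match 193 bases before the start and a RUNX match at 31 bases. PTPN7 and CD33 had 1 each in the printed stretch, at 41 and 11 bases. On the chromosomes the 39 genes were spread over 16, with 9 on chromosome 1. Only 5 pairs lay within 1000000 bases of each other, among them CD48 and CD84 at 99230 bases and LCP2 and DOCK2 at 162855 bases (GENCODE release 29, GRCh38).

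The 13 count libraries held 6214675 to 11058345 counts, so that 3 counts, the limit that a count of 0 allows, correspond to 0.271 to 0.483 counts per 1000000 counts of the library (CPM). The mitochondrial share was 4.15% to 6.08% in the course and at most 9.66% elsewhere. Marker genes fitted the labelled cells in part. All 10 endothelial markers were detected in every course library and summed to 7597 to 9564 CPM with vitamin C, against 6799 to 8904 CPM without. In suspended cells their sum was 884 CPM at 96 h and 1935 CPM at 60 h, with CDH5 (VE-cadherin) at 4.25 and 194 CPM. The 8 erythroid markers summed to 10665 CPM in suspended cells at 96 h, 1013 CPM in suspended cells at 60 h and 13.3 CPM in adherent cells. The 7 megakaryocyte markers summed to 3886, 1037 and 57.5 CPM in the same libraries. Markers of mature leukocytes differed by lineage in suspended cells at 60 h. The 8 T and NK cell markers summed to 12.4 CPM, against 1.60 CPM in adherent cells, with 4 of them, CD3E included, at 0. The 2 of them with a mean of at least 1 CPM were both at least 2-fold higher than in adherent cells. The 6 B cell markers summed to 0.575 CPM and the 6 granulocyte markers to 0.431 CPM, with 5 at 0 in each list, MS4A1 and ELANE included. The 8 macrophage markers summed to 43.3 CPM, against 208 CPM in adherent cells, with 4 of them, CD14 and C1QA included, at 0. Of the 2 macrophage markers with that mean, 1 was at least 2-fold higher than in adherent cells and 1 at least 2-fold lower. The 5 mast cell markers, which include KIT and GATA2 of blood progenitors, summed to 1060 CPM in suspended cells at 60 h with none at 0, against 184 CPM in adherent cells, and GATA2 alone made up 965 and 172 CPM of those sums. PTPRC (CD45), the usual surface mark of blood cells other than red cells and platelets, was itself low, with 4.70 CPM in suspended cells at 96 h and 3.16 CPM at 60 h.

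The 39 genes covered a wide range. In 8 of them no course library passed 1 CPM (PTPRC, BIN2, ARHGAP15, CD48, IL2RG, EVI2B, CYBB and SRGN), whereas ARHGDIB, LAPTM5 and CD44 stayed above 100 CPM in all 10. Suspended cells held the highest level of the 13 libraries for 36 of the 39, with 25 peaking at 96 h and 11 at 60 h. The exceptions were CD44, TNFRSF1B and ADGRE5, which peaked in course libraries. Per kb of exon, the highest levels in suspended cells at 60 h were those of ARHGDIB with 241 CPM per kb, LAPTM5 with 199.5 and RAC2 with 81.7. BTK followed with 66.4 and LCP1 with 54.9 CPM per kb.

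**Figure D1:**
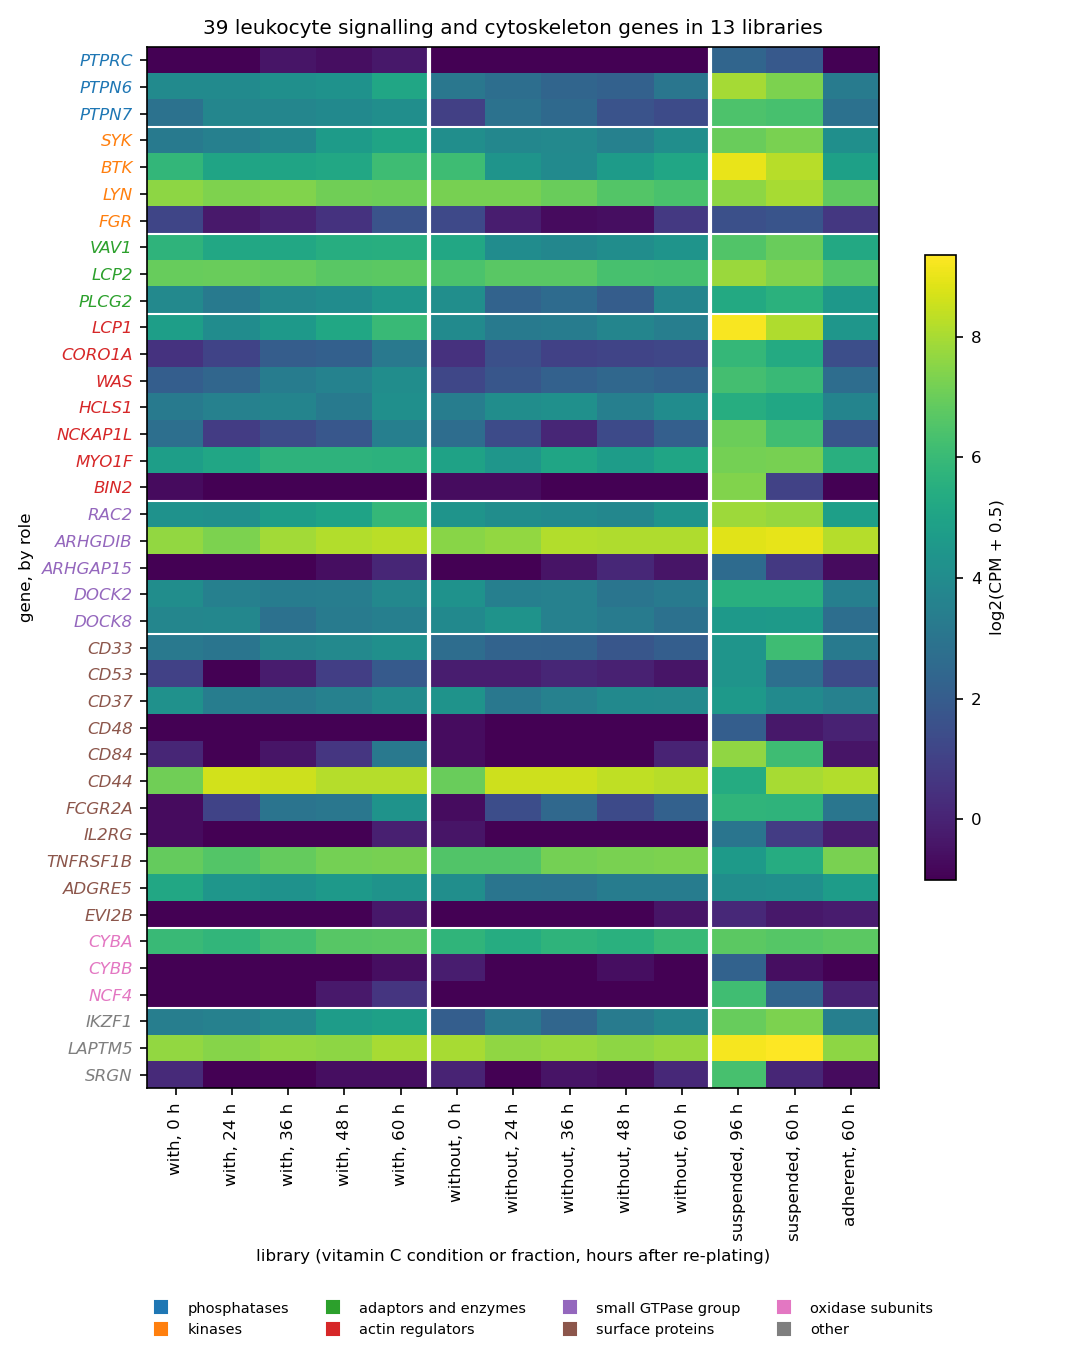
Level of each of the 39 genes, as log2(CPM + 0.5) by colour, in the 13 count libraries, with rows grouped by role and columns by vitamin C condition, fraction and hours. The 2 columns of suspended cells are the brightest for most rows, and PTPRC, CD48, EVI2B and CYBB stay dark nearly throughout.

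A group of these genes was higher with vitamin C over the re-plating course. PTPN6, PTPN7, VAV1, LCP1, WAS, CD33, ADGRE5 and IKZF1 were each higher by more than 1 on the log2 scale, and LYN, LCP2, MYO1F and CYBA were higher by less. Of the 39 genes, 27 had enough counts to be tested, and 12 of them were called higher and 0 lower at an adjusted p under 0.05, against 2.52% of all 14773 genes tested called higher, 3.73% called lower and 6.25% called in either direction (edgeR's quasi-likelihood test with the time point as a factor, Benjamini-Hochberg adjustment over all genes). At an unadjusted p under 0.05, 17 were higher and 0 lower, against 8.5% of all genes higher and 10.6% lower. DESeq2 called 15 higher and 0 lower, against 2.5% of all genes higher and 3.47% lower. The median log2 difference of the 27 was 0.59, and that of all genes tested -0.00021. Each of the 12 but MYO1F was higher with vitamin C at all 5 times. This describes genes picked by a test on the same libraries and adds no support to the calls. How many of all genes were higher at all 5 times was not counted. In 5 of the 27 genes tested (PTPN6, PTPN7, LCP1, CD33 and ADGRE5, all among the 12), every library with vitamin C lay above every library without. That held for 0.799% of all genes tested, and the opposite order for 0.833%. It describes the same libraries as the test and likewise adds no support to the calls. Without the time point as a factor, the test called 28 genes in all and PTPN6 alone among the 39. All of this is bulk RNA, in which fewer cells of a type and less RNA per cell cannot be told apart. The 10 markers of blood progenitors summed to 1474 to 1941 CPM with vitamin C, against 711 to 1150 CPM without, the 7 megakaryocyte markers to 37.7 to 209.7 CPM, against 20.2 to 49.6 CPM, and the 7 mesenchymal markers to 400 to 889 CPM, against 707 to 1439 CPM. Most of the progenitor sum was CD34, which endothelium also carries, and without it the other 9 markers summed to 317 to 578 CPM with vitamin C, against 218 to 401 CPM without. At 0 h those 9 were at 409 CPM with vitamin C, against 401 CPM without. Of the 9 progenitor markers tested, 7 were called higher and 0 lower. Their part in the differences was not tested. Levels below are CPM of the library total, listed in the order 0, 24, 36, 48 and 60 h.

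**Figure D2:**
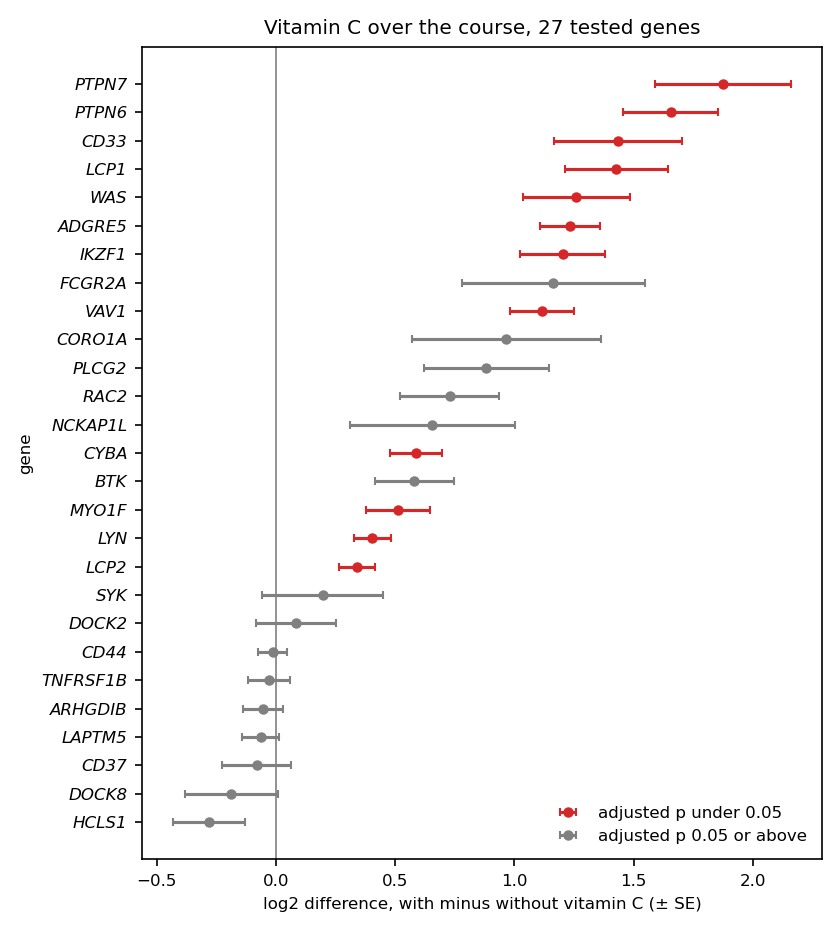
Log2 difference between libraries with and without vitamin C over the course (horizontal axis, with its SE as bars) for the 27 genes tested, with called genes in red. The 12 called genes lie between 0.34 and 1.87, and no gene was called lower.

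Among the phosphatases, the inhibitory PTPN6 and PTPN7, a phosphatase that acts on MAP kinases, showed the largest differences. PTPN6 had 15.2, 15.1, 17.6, 19.1 and 34.5 CPM with vitamin C, against 8.14, 6.27, 4.66, 4.17 and 7.89 CPM without it. Its lowest library with vitamin C lay above its highest without, and the log2 difference was 1.65 ± 0.20 (SE, adjusted p = 0.000501). PTPN7 had 7.003, 12.9, 12.8, 14.5 and 16.8 CPM with vitamin C, against 1.42, 6.92, 5.23, 2.62 and 2.07 CPM without it. Its groups also did not overlap, though only just, and the log2 difference was 1.87 ± 0.29 (SE, adjusted p = 0.00244). PTPRC was at 0 in every course library without vitamin C and at 0, 0, 0.242, 0.153 and 0.293 CPM with it, levels of 2 counts or fewer per library.

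LYN was the only kinase called. It had 190.1, 165, 167, 137 and 132 CPM with vitamin C, against 148, 149, 125, 95.4 and 83.5 CPM without it. The lowest level of each condition was at 60 h, and the library with vitamin C was the higher one at each time, with a log2 difference of 0.40 ± 0.079 (SE, adjusted p = 0.00935). That call was lost without the 48 h library without vitamin C, at an adjusted p of 0.0547. BTK, the kinase missing in X-linked agammaglobulinaemia, had 57.7, 32.8, 32.1, 36.7 and 69.8 CPM with vitamin C, against 69.5, 20.1, 15.1, 25.2 and 34.1 CPM without it. Its groups overlapped, with the 0 h pair against the direction of the later times, and the difference of 0.58 ± 0.17 (SE, adjusted p = 0.0639) was not called. SYK had 9.18, 10.9, 13.4, 25.5 and 32.9 CPM with vitamin C, against 16.9, 13.2, 14.1, 11.3 and 16.9 CPM without it. It was lower with vitamin C up to 36 h and higher at 48 and 60 h, so that the average difference over the course was 0.20 ± 0.25 (SE, adjusted p = 0.739). FGR stayed at 2.63 CPM or less and was not tested.

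Of the adaptors and effectors, VAV1 and LCP2 were called higher with vitamin C and PLCG2 missed the threshold. VAV1, which activates RAC GTPases, had 52.1, 36.2, 36.7, 43.7 and 44.3 CPM with vitamin C, against 36.3, 15.7, 13.3, 16.5 and 19.9 CPM without it. The 0 h library without vitamin C just exceeded the 24 h library with it, and all other libraries without lay far below. The log2 difference was 1.11 ± 0.13 (SE, adjusted p = 0.000462). LCP2, the SLP-76 scaffold, had 124, 126, 119, 104 and 106 CPM with vitamin C, against 86.2, 105, 104, 81.5 and 78.1 CPM without it. The groups overlapped by the 24 and 36 h libraries without vitamin C, and the difference was small, 0.34 ± 0.074 (SE, adjusted p = 0.0178). Leaving out either 48 h or either 60 h library took its adjusted p to between 0.0544 and 0.0667. PLCG2, the phospholipase downstream of BTK, had 14.2, 8.85, 13.8, 15.9 and 20.9 CPM with vitamin C, against 16.7, 4.44, 5.57, 3.70 and 12.7 CPM without it. Without vitamin C the lowest levels were those from 24 to 48 h, and the difference of 0.88 ± 0.26 (SE, adjusted p = 0.0726) was not called.

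Actin regulators gave 3 calls among the 6 tested. LCP1 (L-plastin), which bundles actin filaments in leukocytes, had 27.2, 16.1, 23.9, 35.4 and 63.7 CPM with vitamin C, against 15.1, 8.75, 9.78, 12.7 and 10.3 CPM without it. The groups did not overlap, and at 60 h the gap was widest. Its log2 difference was 1.43 ± 0.21 (SE, adjusted p = 0.00219). WAS, which activates the ARP2/3 complex, had 3.79, 4.83, 9.69, 11.6 and 16.4 CPM with vitamin C, against 1.81, 2.87, 4.21, 4.94 and 4.27 CPM without it. The 0 and 24 h libraries with vitamin C lay among those without, and the log2 difference was 1.26 ± 0.22 (SE, adjusted p = 0.00566). MYO1F, a leukocyte class I myosin, had 27.4, 33.95, 50.8, 51.5 and 49.2 CPM with vitamin C, against 30.5, 21.3, 33.9, 26.1 and 33.7 CPM without it. At 0 h the order was reversed, from 24 h the library with vitamin C was the higher one, and the difference was 0.51 ± 0.13 (SE, adjusted p = 0.0428). Without any 1 of the 8 libraries from 24 to 60 h, MYO1F was no longer called, with adjusted p of 0.0962 to 0.171. Those 8 fits are not separate checks, since a library without its partner at that time no longer adds to the difference. CORO1A (coronin 1A), an actin-binding protein, had 0.918, 1.61, 3.63, 3.97 and 8.49 CPM with vitamin C, against 0.905, 2.35, 1.48, 1.70 and 1.81 CPM without it. The widest gap was at 60 h, and the average difference of 0.97 ± 0.40 (SE, adjusted p = 0.199) was not called. NCKAP1L (HEM1), the blood-cell member of the WAVE complex, had 6.43, 1.29, 2.18, 3.05 and 10.7 CPM with vitamin C, against 5.95, 2.09, 0.569, 2.01 and 3.88 CPM without it, with a difference of 0.66 ± 0.35 (SE, adjusted p = 0.339). HCLS1, a cortactin relative, gave -0.28 ± 0.15 (SE, adjusted p = 0.352). BIN2 had at most 1 count in every course library and was not tested.

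None of the 4 tested members of the small GTPase group was called. RAC2, the blood-cell RAC, had 18.8, 17.7, 27.02, 31.3 and 58.3 CPM with vitamin C, against 20.2, 16.5, 15.1, 13.3 and 20.04 CPM without it. From 36 h the libraries with vitamin C were higher, before that the order was mixed, and the difference was 0.73 ± 0.21 (SE, adjusted p = 0.0618). ARHGDIB, the leukocyte inhibitor that holds small GTPases in the cytosol, had 206, 159, 241, 282 and 313 CPM with vitamin C, against 181, 204, 287, 274 and 277 CPM without it. Its groups overlapped almost fully, with a difference of -0.055 ± 0.085 (SE, adjusted p = 0.792). DOCK2, an exchange factor for RAC, had 16.4, 10.8, 9.57, 9.93 and 13.9 CPM with vitamin C, against 19.1, 10.6, 11.4, 7.56 and 9.05 CPM without it, with a difference of 0.083 ± 0.17 (SE, adjusted p = 0.846), and DOCK8, an exchange factor for CDC42, gave -0.19 ± 0.19 (SE, adjusted p = 0.669). ARHGAP15 was at 0.617 CPM or less and was not tested.

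Surface proteins were split. CD33, an inhibitory lectin of myeloid cells, had 8.50, 7.72, 12.7, 14.4 and 17.3 CPM with vitamin C, against 6.07, 4.44, 4.32, 2.93 and 3.75 CPM without it. The groups did not overlap, and the highest level was at 60 h with vitamin C but at 0 h without it. Its difference was 1.43 ± 0.27 (SE, adjusted p = 0.00757). ADGRE5 (CD97), an adhesion receptor, had 36.7, 21.4, 19.02, 23.7 and 19.3 CPM with vitamin C, against 16.8, 7.71, 7.39, 9.72 and 9.57 CPM without it. It was highest at 0 h in both conditions, the groups did not overlap, and the difference was 1.23 ± 0.13 (SE, adjusted p = 0.000215), the smallest adjusted p of the list. CD44, the hyaluronan receptor that endothelium also carries, had 139, 397, 376, 295 and 290.1 CPM with vitamin C, against 127, 381, 373, 329 and 299 CPM without it. The lowest level of each condition was at 0 h, and the groups overlapped, with a difference of -0.013 ± 0.061 (SE, adjusted p = 0.943). FCGR2A, an activating IgG receptor, gave 1.16 ± 0.38 (SE, adjusted p = 0.103), TNFRSF1B, a receptor for TNF, -0.030 ± 0.088 (SE, adjusted p = 0.900), and the tetraspanin CD37 -0.080 ± 0.14 (SE, adjusted p = 0.827). CD84, a SLAM family receptor, had too few counts for the test. Its levels were 0.574, 0, 0.242, 1.07 and 8.64 CPM with vitamin C, against 0.129, 0, 0, 0 and 0.517 CPM without it. The 60 h library with vitamin C was the only one of the 10 above 1.07 CPM. CD53, CD48, IL2RG and EVI2B were not tested either, with at most 3.37 CPM.

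Of the oxidase genes, only CYBA had enough counts. CYBA (p22phox), the subunit shared by several NADPH oxidases, had 64.9, 55.7, 74.4, 101 and 104 CPM with vitamin C, against 53.6, 41.9, 53.1, 47.2 and 62.3 CPM without it. The 60 h library without vitamin C lay above the 24 h library with it, and the log2 difference was 0.59 ± 0.11 (SE, adjusted p = 0.00684). CYBB (gp91phox), the phagocyte-specific catalytic partner, was at 0.388 CPM or less in all 10 libraries, and NCF4 (p40phox) at 0 without vitamin C and at 0, 0, 0, 0.305 and 1.02 CPM with it. IKZF1 (Ikaros), a zinc finger regulator of lymphoid and other blood lineages, had 10.2, 11.1, 14.1, 25.96 and 28.8 CPM with vitamin C, against 3.75, 8.23, 4.89, 9.26 and 12.5 CPM without it. Groups overlapped through the 60 h library without vitamin C, and the log2 difference was 1.20 ± 0.18 (SE, adjusted p = 0.00199). LAPTM5, a lysosomal membrane protein of blood cells, had 206, 179, 205, 194 and 257 CPM with vitamin C, against 256, 201, 213, 190.0 and 217 CPM without it, with a difference of -0.064 ± 0.078 (SE, adjusted p = 0.727). SRGN (serglycin), a granule proteoglycan, stayed at 0.689 CPM or less in all 10 libraries.

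**Figure D3:**
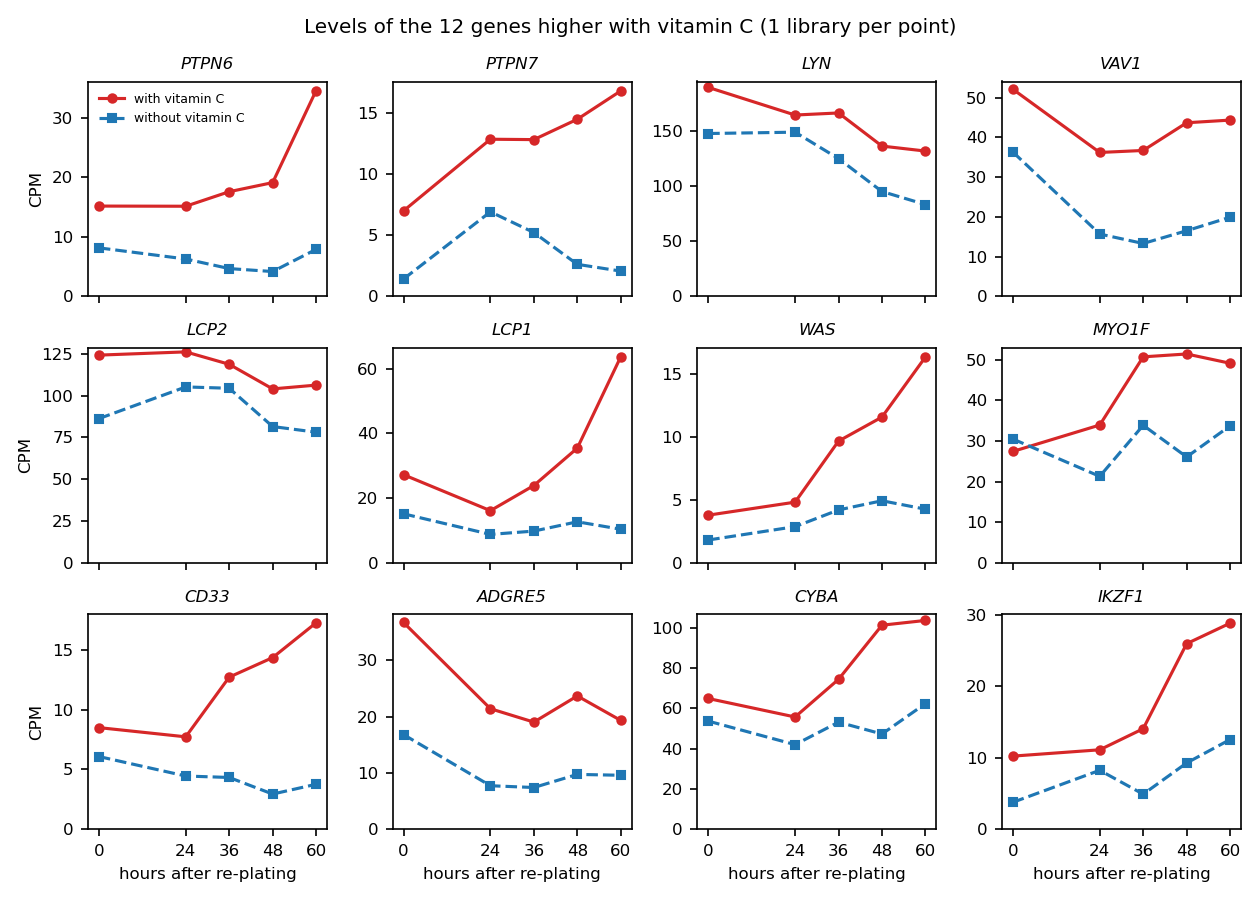
CPM of the 12 called genes (vertical axes, from 0) by hours after re-plating, with vitamin C as red circles and without as blue squares, 1 library per point. Red lies above blue at every time in 11 panels, and MYO1F crosses at 0 h.

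Ratios between the conditions were closer to 1 at 0 and 24 h than from 36 h on. Among the 28 genes with a mean of at least 1 CPM over the course, 17, 19, 20, 24 and 26 were higher with vitamin C at 0, 24, 36, 48 and 60 h, with median log2 ratios of 0.16, 0.20, 0.57, 1.06 and 0.96. Of 15573 genes held to the same minimum, 50.4% to 52.9% were higher at each of those times, with median log2 ratios of 0.0033 to 0.024. Among the 28 is CD84, which had too few counts for the test over the course. It reached the minimum only through the 60 h library with vitamin C (8.64 CPM), and it counts as 2-fold higher at 48 and 60 h. At least 2-fold higher were 3, 3, 12, 15 and 13 of the 28, and 0 were 2-fold lower at any time. The share of all genes past 2-fold at each time was not counted, so these counts have no reference beside them. Each time rests on 1 library per condition.

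Slopes along the hours were fitted as a straight line on the log2 scale in each condition and are given per 60 h. With vitamin C, SYK rose by 1.93 ± 0.37 (SE, adjusted p = 0.0404), CORO1A by 3.17 ± 0.62 (SE, adjusted p = 0.0412) and WAS by 2.20 ± 0.43 (SE, adjusted p = 0.0407), so that 3 of the 27 genes tested were called higher and 0 lower, against 0.819% of all genes called higher, 0.636% lower and 1.46% in either direction. FCGR2A just missed the threshold at 6.16 ± 1.28 (SE, adjusted p = 0.0505). It had 0.115, 1.61, 7.39, 8.09 and 19.6 CPM with vitamin C, against 0.129, 2.22, 5.12, 2.01 and 4.14 CPM without it. The 3 calls were not stable. Leaving out any of the 5 libraries with vitamin C, or the 48 h library without, left 0 of the genes called, leaving out the 36 h library without left 1, and leaving out the 60 h library without left 2. Without the 0 h library lacking vitamin C, 5 were called. That fit called 334 of all genes higher and 254 lower, where the fit of all 10 libraries had called 121 and 94. When both 0 h libraries were left out, 11 were called higher and CD44 lower, with 1008 of all genes called higher and 803 lower. CD44 was at -0.90 in that fit (adjusted p = 0.0224), although its slope over all 5 times was 0.80 ± 0.71 (SE, adjusted p = 0.711).

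Without vitamin C, 0 of the 27 genes were called along the hours, against 2.21% of all genes called higher, 1.95% lower and 4.16% in either direction. At an unadjusted p under 0.05, 4 were higher (TNFRSF1B, IKZF1, WAS and ARHGDIB) and 4 lower (LYN, DOCK2, DOCK8 and VAV1), against 9.12% of all genes higher and 9.77% lower. DESeq2 called 2 higher and 1 lower, against 4.48% and 3.91% of all genes. LYN had the smallest p, with a slope of -0.89 ± 0.22 (SE, adjusted p = 0.0552). TNFRSF1B had 0.89 ± 0.26 (SE, adjusted p = 0.0901). The slopes of the conditions were compared directly by the interaction of condition and hours, which called 0 of all 14773 genes (415 at an unadjusted p under 0.05, and 11 by DESeq2, none of them among the 39). The slope was more positive with vitamin C in 7377 of all 14773 genes and in 22 of the 27. The median difference per 60 h on the log2 scale was -0.00069 for all genes and 0.79 for the 27. The smallest p-values were those of SYK, 2.05 ± 0.52 (SE) with an unadjusted p of 0.00266, CD33, 1.94 ± 0.55 (SE) with 0.00542, and RAC2, 1.73 ± 0.54 (SE) with 0.00920. Each had an adjusted p of 0.9996. A difference in slope between the conditions was thus not shown for any of them.

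In the endothelium sorted and read directly, none of the leukocyte genes was called different with vitamin C. Of 14421 genes tested with limma on log2(TPM + 1), 0 were called (313 at an unadjusted p under 0.05), and of the 30 leukocyte genes tested 0 were called and 0 had an unadjusted p under 0.05. With 2 libraries per condition this test has little power, so the absence of calls does not show that the genes were alike. The median log2 difference of the 30 was -0.15, and that of all genes -0.086. Of the 30, CYBA was the only one with both libraries with vitamin C above both without, which held for 9.09% of all genes tested. CYBA had 579 and 289 TPM with vitamin C, against 278 and 176 TPM without it. SYK, DOCK2, FCGR2A and CD37 had both below, 4 of the 30, as did 19.3% of all genes tested. SYK had 2.57 and 6.82 TPM with vitamin C, against 11.3 and 9.90 TPM without it, and DOCK2 5.30 and 10.4 TPM with vitamin C, against 15.3 and 16.8 TPM without it. The other genes called over the course had overlapping values here. PTPN6 had 29.1 and 36.9 TPM with vitamin C, against 31.2 and 24.9 TPM without it, and VAV1 24.8 and 75.8 TPM with vitamin C, against 42.4 and 51.2 TPM without it. LCP1 had 10.9 and 16.9 TPM with vitamin C, against 7.59 and 11.3 TPM without it, and IKZF1 1.26 and 3.85 TPM with vitamin C, against 2.14 and 4.58 TPM without it. Of the remaining 7, LCP2 was the most abundant in each of the 4 libraries. PTPN7 had 0.890 and 8.47 TPM with vitamin C, against 2.42 and 3.41 TPM without it, LYN 64.7 and 88.3 TPM with vitamin C, against 103 and 73.7 TPM without it, and LCP2 96.5 and 254 TPM with vitamin C, against 156 and 251 TPM without it. WAS had 3.88 and 5.17 TPM with vitamin C, against 2.56 and 5.23 TPM without it, and MYO1F 27.1 and 34.6 TPM with vitamin C, against 25.7 and 33.7 TPM without it. CD33 had 6.97 and 17.1 TPM with vitamin C, against 5.56 and 10.4 TPM without it, and the adhesion receptor ADGRE5 34.3 and 45.6 TPM with vitamin C, against 46.7 and 13.3 TPM without it. The titles and the descriptions of the libraries disagree on the condition of 2 of the 4. The values above follow the titles, and the grouping of the descriptions likewise called 0 of the 39 genes.

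Suspended cells at 60 h carried far more RNA of these genes than the adherent cells at 60 h. PTPN6, CORO1A, IKZF1, LCP1, NCKAP1L and CD84 were among those more than 10-fold higher, while TNFRSF1B was lower. Of the 32 genes with a mean of at least 1 CPM in the pair, 25 were at least 2-fold higher and 1 at least 2-fold lower, against 13.1% and 15% of all 15683 genes. PTPRC, CD84 and NCF4, counted among the 25, were under 1 CPM in adherent cells. They entered only through the suspended library and could not have counted as lower. Ratios have 0.5 CPM added; their median was 1.97 on the log2 scale for the 32 genes and 0.12 for all genes. Scaling by TMM moved the median of all genes to 0.0075 and left 23 of the 32 at least 2-fold higher, with FGR and PLCG2 falling under that limit. Of all genes, 1714 were then at least 2-fold higher and 2620 lower, where they had been 2049 and 2359. There is 1 library per fraction, so no test of the fractions was made, and intervals cover counting error only. The sum of 10 endothelial markers was 1935 CPM in suspended and 9675 CPM in adherent cells, and that of the blood progenitor markers 2537 and 1361 CPM, or 2204 and 248.6 CPM without CD34. How much of the difference goes with that makeup was not tested.

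By role, all 3 phosphatases were at least 2-fold higher, though PTPRC entered the comparison only through the suspended library. PTPN6 had 158 CPM in suspended cells, against 9.49 CPM in adherent cells, a ratio of 16.6-fold (95% counting interval 13.2 to 21.2). PTPN7 had 80.5 CPM in suspended cells, against 6.78 CPM in adherent cells, or 11.9-fold (95% counting interval 8.995 to 15.97). PTPRC had 22 counts in suspended cells and 0 in adherent cells, at least 8.56-fold higher when 3 counts are taken as the limit for the adherent library. All 4 kinases were higher. BTK had 304 CPM in suspended cells, against 29.1 CPM in adherent cells, or 10.4-fold (95% counting interval 9.12 to 11.996). SYK, which starts signals at immune receptors, had 155 CPM in suspended cells, against 17.4 CPM in adherent cells, or 8.90-fold (95% counting interval 7.46 to 10.7). LYN, the SRC-family member among them, had 255 CPM in suspended cells, against 112 CPM in adherent cells, or 2.28-fold (95% counting interval 2.11 to 2.48). FGR, another SRC-family kinase, had 19 counts in suspended and 9 in adherent cells, a ratio of 2.46-fold (95% counting interval 1.06 to 6.18). Of the 3 adaptors, VAV1 and PLCG2 passed 2-fold. VAV1 had 128 CPM in suspended cells, against 37.1 CPM in adherent cells, and PLCG2 48.2 CPM in suspended cells, against 22.4 CPM in adherent cells. LCP2 was closer between the fractions, with 168 CPM in suspended cells, against 98.4 CPM in adherent cells.

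All 6 actin regulators compared were higher in suspended cells. NCKAP1L had 72.9 CPM in suspended cells, against 2.83 CPM in adherent cells, or 25.7-fold (95% counting interval 16.9 to 40.9). CORO1A had 39.8 CPM in suspended cells, against 2.34 CPM in adherent cells, or 17.01-fold (95% counting interval 10.7 to 28.7). LCP1 had 278 CPM in suspended cells, against 21.3 CPM in adherent cells, or 13.03-fold (95% counting interval 11.1 to 15.3). WAS was 10.9-fold (95% counting interval 8.06 to 14.96) higher, MYO1F 3.27-fold (95% counting interval 2.91 to 3.69) and HCLS1 2.96-fold (95% counting interval 2.34 to 3.78). BIN2, a membrane-bending protein, had 11 counts in suspended and 0 in adherent cells, at least 4.28-fold higher by the same limit. In the small GTPase group 3 of 4 passed 2-fold. RAC2 had 207 CPM in suspended cells, against 28.3 CPM in adherent cells, or 7.30-fold (95% counting interval 6.35 to 8.43). DOCK2 had 45.7 CPM in suspended cells, against 10.7 CPM in adherent cells, and DOCK8 was 3.97-fold (95% counting interval 2.88 to 5.55) higher. ARHGDIB, abundant in both fractions, had 507 CPM in suspended cells, against 293 CPM in adherent cells, a ratio of 1.73-fold (95% counting interval 1.64 to 1.82).

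Of the 8 surface proteins compared, 4 were at least 2-fold higher and 1 lower. CD84 had 488 counts in suspended and 2 in adherent cells. That is 70.1 CPM in suspended cells, against 0.246 CPM in adherent cells, and the ratio of 285-fold (95% counting interval 78.4 to 2357) is poorly bounded above. CD33 had 70.4 CPM in suspended cells, against 9.12 CPM in adherent cells, or 7.73-fold (95% counting interval 6.04 to 10.004). FCGR2A was 6.78-fold (95% counting interval 5.18 to 9.003) and CD53 3.09-fold (95% counting interval 1.73 to 5.76) higher. TNFRSF1B went the other way, with 41.8 CPM in suspended cells, against 156 CPM in adherent cells, a ratio of 0.269-fold (95% counting interval 0.236 to 0.306). ADGRE5 had 17.4 CPM in suspended cells, against 25.99 CPM in adherent cells, and CD44 254 CPM in suspended cells, against 289 CPM in adherent cells. CD37 had 15.1 CPM in suspended cells, against 11.1 CPM in adherent cells. CD44, ADGRE5 and TNFRSF1B, the 3 that peaked in course libraries, were thus lower in CPM in suspended than in adherent cells. CYBA was close between the fractions, with 98.3 CPM in suspended cells, against 105 CPM in adherent cells. NCF4 had 33 counts in suspended and 4 in adherent cells, or 9.63-fold (95% counting interval 3.42 to 37.4). Of the remaining genes, the lineage regulator IKZF1 had 158 CPM in suspended cells, against 10.7 CPM in adherent cells, or 14.7-fold (95% counting interval 11.8 to 18.5). LAPTM5 had 653 CPM in suspended cells, against 194 CPM in adherent cells, or 3.37-fold (95% counting interval 3.18 to 3.57). SRGN had 4 counts in suspended and 1 in adherent cells, and CYBB 1 and 0.

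Many of these genes have a relative that most tissues express, and the pairs differed. For 21 pairs of a leukocyte gene and a paralog, over 19 of the 39 genes, the suspended over adherent ratio of the leukocyte gene was above that of its paralog in all 21. In the pair of CYBB and NOX4, the CYBB ratio rests on 1 count in suspended and 0 in adherent cells. Of the 19 leukocyte genes 17 were at least 2-fold higher in suspended cells, counting BIN2 with its mean under 1 CPM, and of the 21 paralogs 2 were at least 2-fold higher and 6 at least 2-fold lower. The median log2 ratio was 2.06 over the pairs for the leukocyte genes and -0.67 for the paralogs. Against LCP1 at 3.67, its relative PLS3 (T-plastin) was at -1.17, with 80.5 CPM in suspended cells, against 182 CPM in adherent cells. RAC1, the general RAC, was at -0.37, NCKAP1 at -0.74 and WASL (N-WASP) at -0.28. CTTN (cortactin) was at -2.50, while its relative HCLS1 was at 1.53. MYO1E was at -2.33 and FYN, a SRC-family kinase, at -1.03. The exceptions among the paralogs were TEC, a kinase related to BTK, with 99.3 CPM in suspended cells, against 11.7 CPM in adherent cells, and IKZF2 (Helios), with 11.8 CPM in suspended cells, against 5.17 CPM in adherent cells. CORO1C was at 0.92, ZAP70 at 0.99 and SRC at 0.82. Over the course, 7 of the 19 leukocyte genes were called higher with vitamin C, where FGR, BIN2 and CYBB were not tested. Of the 20 paralogs tested, 0 were called in either direction. A difference between the sets of calls was not tested. Paralogs share sequence, and how reads that fit both were counted is not given in the sources used here.

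**Figure D4:**
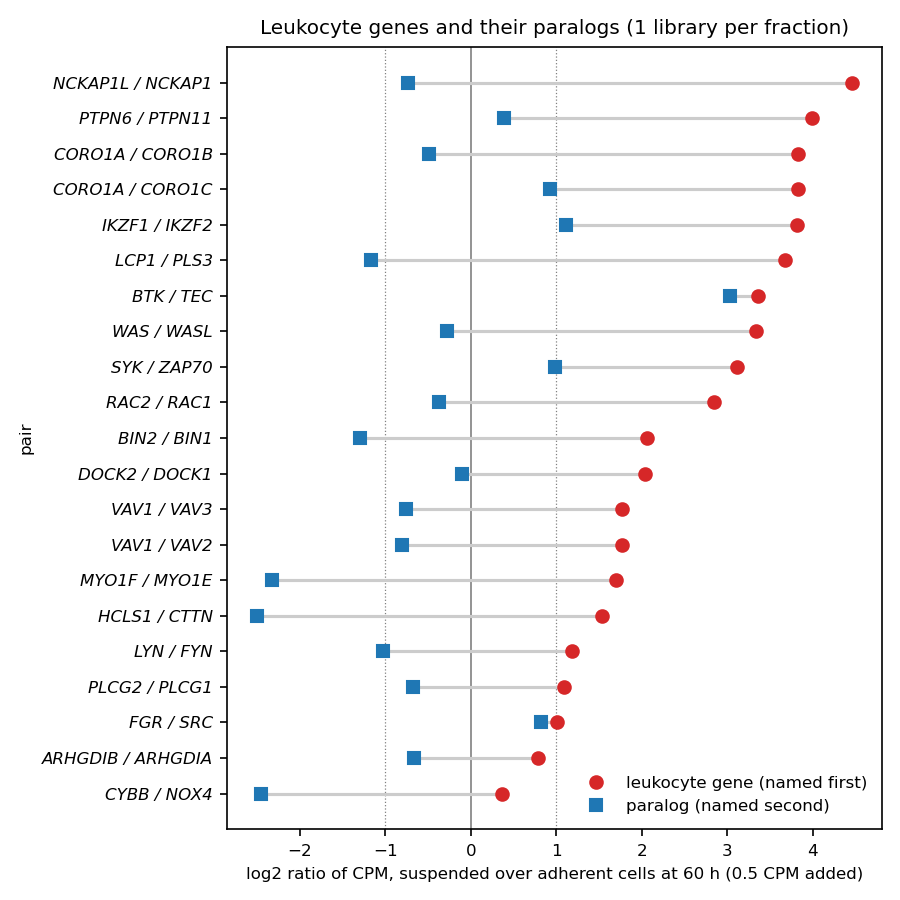
Log2 ratio of CPM (0.5 CPM added) of suspended over adherent cells at 60 h for 21 pairs, with the leukocyte gene as a red circle and its paralog as a blue square, 1 library per fraction. Dotted lines mark 2-fold. Every red circle lies right of its blue square, least so for FGR with SRC and BTK with TEC.

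The course library with vitamin C at 60 h lay between the fractions for most of the leukocyte genes. Of the 31 leukocyte genes with a mean of at least 1 CPM, 28 (90.3%) had a level in the 60 h course library with vitamin C that fell between those of suspended and adherent cells, and so did 59.4% of 15738 genes. These shares are not like for like, since a wide gap between the fractions leaves more room to fall between them. A larger share of the leukocyte genes than of all genes was at least 2-fold apart, as given above. The higher share is thus not separate from that difference. PTPN6, for example, had 157.5 CPM in suspended cells, 34.5 CPM in the course library and 9.49 CPM in adherent cells, and LCP1 had 277.7, 63.7 and 21.3 CPM. Across the 31 genes the vitamin C log2 ratio at 60 h and the suspended over adherent log2 ratio had a Pearson r of 0.75 and a Spearman coefficient of 0.73, and across all 15738 genes 0.32 and 0.31. These are descriptions across genes of 4 libraries and not tests. The course library without vitamin C at 60 h had 7.89 CPM of PTPN6, 1.81 CPM of CORO1A and 12.5 CPM of IKZF1, where adherent cells had 9.49, 2.34 and 10.7 CPM. LCP1 and VAV1 were further apart, with 10.3 and 19.9 CPM in that library and 21.3 and 37.1 CPM in adherent cells.

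Suspended cells at 96 h carried several genes of the list that had few counts in suspended cells at 60 h. BIN2, SRGN and NCF4 had the largest ratios at 96 h over 60 h, and CD44 and CD33 were lower. Of the 38 genes with a mean of at least 1 CPM in this pair, 10 were at least 2-fold higher at 96 h and 2 at least 2-fold lower, against 6.5% and 12.1% of 15486 genes. SRGN, CYBB and CD48, counted among the 10, were under 1 CPM at 60 h. They entered only through the 96 h library and could not have counted as lower. The median log2 ratio was 0.20 for the 38 genes and -0.18 for all genes. TMM scaling moved the median of all genes to 0.023 and the counts of all genes past 2-fold to 1299 higher and 1453 lower, where they had been 1006 and 1867. It made 11 of the 38 at least 2-fold higher and left the 2 lower ones. Erythroid markers summed to 10665 CPM at 96 h and 1013 CPM at 60 h, megakaryocyte markers to 3886 and 1037 CPM, granulocyte markers to 19.0 and 0.431 CPM, and mast cell markers to 472 and 1060 CPM. Their part in the levels of the other genes was not tested.

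BIN2 had 1870 counts at 96 h and 11 at 60 h, that is 169 CPM at 96 h, against 1.58 CPM at 60 h, or 107-fold (95% counting interval 59.6 to 215). SRGN had 884 counts at 96 h and 4 at 60 h, that is 79.9 CPM at 96 h, against 0.575 CPM at 60 h. Serglycin packs granule contents, and like BIN2 it was hardly detected at 60 h. NCF4 had 71.1 CPM at 96 h, against 4.74 CPM at 60 h, or 14.98-fold (95% counting interval 10.6 to 21.9). Of the other oxidase subunits, CYBB had 4.25 CPM at 96 h, against 0.144 CPM at 60 h, and CYBA 107 CPM at 96 h, against 98.3 CPM at 60 h. CD84 had 199.8 CPM at 96 h, against 70.1 CPM at 60 h, or 2.85-fold (95% counting interval 2.58 to 3.15). Of the other surface proteins, CD53 had 19.98 CPM at 96 h, against 6.47 CPM at 60 h, IL2RG, the shared interleukin receptor chain, 7.60 CPM at 96 h, against 1.29 CPM at 60 h, and CD48 3.80 CPM at 96 h, against 0.287 CPM at 60 h. ARHGAP15 had 5.70 CPM at 96 h, against 1.15 CPM at 60 h. LCP1 had 606 CPM at 96 h, against 278 CPM at 60 h, or 2.18-fold (95% counting interval 2.07 to 2.29). CD44 had 41.3 CPM at 96 h, against 254 CPM at 60 h, a ratio of 0.163-fold (95% counting interval 0.146 to 0.180), and CD33 20.5 CPM at 96 h, against 70.4 CPM at 60 h, a ratio of 0.291-fold (95% counting interval 0.248 to 0.342).

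No kinase, adaptor or phosphatase differed by 2-fold between the suspended libraries, and of the small GTPase group only ARHGAP15 did. BTK had 509 CPM at 96 h, against 304 CPM at 60 h. SYK had 126 CPM at 96 h, against 155 CPM at 60 h, LYN 193 CPM at 96 h, against 255 CPM at 60 h, and VAV1 93.4 CPM at 96 h, against 128 CPM at 60 h. These 3 were lower at 96 h and BTK higher, each by less than 2-fold. The phosphatases PTPN6 and PTPRC were higher in CPM at 96 h, with 250.5 CPM at 96 h, against 158 CPM at 60 h for PTPN6 and 4.70 CPM at 96 h, against 3.16 CPM at 60 h for PTPRC. RAC2 had 228 CPM at 96 h, against 207 CPM at 60 h, and DOCK2 46.4 CPM at 96 h, against 45.7 CPM at 60 h, close values for a GTPase and its exchange factor. NCKAP1L had 129 CPM at 96 h, against 72.9 CPM at 60 h, and IKZF1 123 CPM at 96 h, against 158 CPM at 60 h. The sign of small ratios depended on scaling: with TMM, ARHGDIB, LAPTM5, MYO1F, DOCK8 and ADGRE5 turned from slightly lower to slightly higher at 96 h. EVI2B had 0.633 CPM at 96 h and 0.287 CPM at 60 h, and its mean was too low for a ratio.

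**Figure D5:**
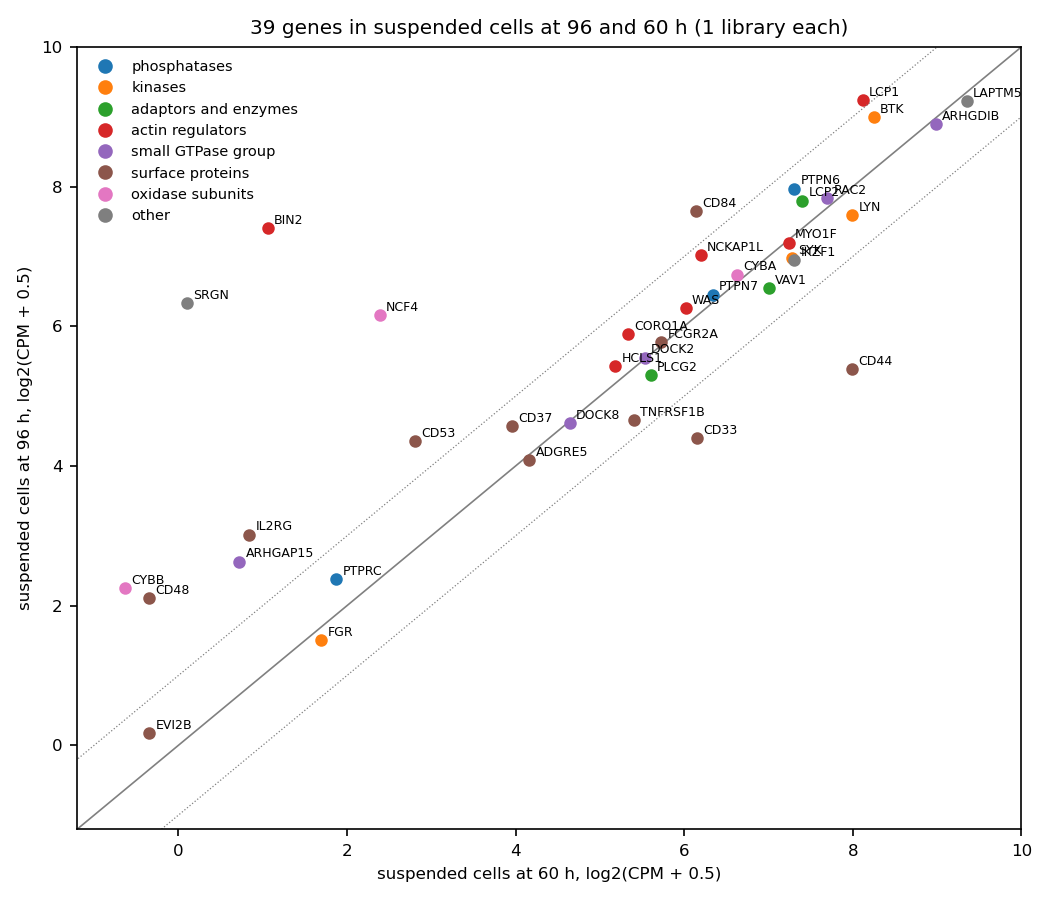
Level of the 39 genes in suspended cells at 96 h (vertical axis) and at 60 h (horizontal axis), both as log2(CPM + 0.5), coloured by role, 1 library each. The solid line marks equal levels and the dotted lines 2-fold. BIN2, SRGN and NCF4 stand far above the line and CD44 below it.

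Other genes of the same kinds, chosen from lists of leukocyte signalling, cytoskeleton, surface and oxidase genes outside the 39, were read in the same tests. Of 16 other signalling genes tested, 2 were called higher and 0 lower, with a median log2 difference of 0.23. These were INPP5D (SHIP1), a lipid phosphatase that restrains PI3K signals, at 0.98 ± 0.10 (SE, adjusted p = 0.000216), and RASAL3, a RAS GTPase activator, at 1.37 ± 0.32 (SE, adjusted p = 0.0241). Of 21 other cytoskeleton genes, 4 were higher and 1 lower, with a median of 0.073. ARHGAP45 was higher by 1.18 ± 0.16 (SE, adjusted p = 0.00127), FERMT3 (kindlin-3), an integrin activator, by 0.77 ± 0.12 (SE, adjusted p = 0.00344), and PSTPIP2 by 0.73 ± 0.12 (SE, adjusted p = 0.00411). The fourth was PARVG at 1.54 ± 0.37 (SE, adjusted p = 0.0302), named after its value was seen, and CYFIP2, a WAVE complex subunit, was lower at -0.62 ± 0.13 (SE, adjusted p = 0.0135). Of 11 other surface genes, SPN (CD43) was higher at 2.43 ± 0.29 (SE, adjusted p = 0.000469) and CD69 lower at -0.57 ± 0.15 (SE, adjusted p = 0.0446), with a median of 0.48. Of 4 other oxidase genes only CYBC1 was tested, and it was not called, at -0.033 ± 0.10 (SE, adjusted p = 0.909).

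In suspended against adherent cells, 11 of 22 other signalling genes, 9 of 23 other cytoskeleton genes and 14 of 16 other surface genes were at least 2-fold higher, with 1 gene of each of these lists at least 2-fold lower. Median log2 ratios were 1.03, 0.58 and 2.38. SPN had 264 CPM in suspended cells, against 8.13 CPM in adherent cells, and the integrin chain ITGA4 143 CPM in suspended cells, against 16.4 CPM in adherent cells. CSF2RB, the shared beta chain of myeloid cytokine receptors, had 89.1 CPM in suspended cells, against 18.97 CPM in adherent cells, and FCER1G 57.1 CPM in suspended cells, against 13.8 CPM in adherent cells. The general adaptor GRB2 had 184 CPM in suspended cells, against 144 CPM in adherent cells, and INPP5D 185 CPM in suspended cells, against 86.98 CPM in adherent cells. FERMT3 had 408 CPM in suspended cells, against 112 CPM in adherent cells, while TMSB4X, an actin-binding peptide of most cells, had 749 CPM in suspended cells, against 723 CPM in adherent cells. Of the other oxidase genes, CYBC1, a chaperone of the oxidase, had 55.5 CPM in suspended cells, against 62.5 CPM in adherent cells. In suspended cells at 96 against 60 h, 4 of 24 other signalling genes, 5 of 24 other cytoskeleton genes and 9 of 18 other surface genes were at least 2-fold higher, and 2, 1 and 0 at least 2-fold lower.

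Some levels are less certain than the counts make them. Exons of IL2RG overlap those of another annotated gene on the same strand over 50.8% of their length, and those of EVI2B over 30.1%. CD48 overlaps a gene on the opposite strand over 29.8%, CORO1A over 11.1% and CD37 over 10.8%, and the strand of the libraries is not given in the sources used here. For the other genes the overlap was 5.45% or less. FCGR2A has near-identical relatives, FCGR2B and FCGR2C, and TMSB4X has many processed copies, so that their counts depend on how shared reads were treated.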

How the data were processed

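RNA was measured by sequencing of TruSeq libraries made from Trizol extracts with 1 ug of RNA, per the labels' protocols. Of the 17 libraries, 13 were deposited as raw counts per gene and 4, of the sorted endothelium, were deposited as normalized values that are taken here as TPM from their totals and their relation to gene length. The submitters' processing notes name the hg38 build, DESeq 1.18.1, HTSeq 0.6.0, HISAT2 2.0.4 and SAMtools 1.3.1. The annotation, the strand setting, the treatment of reads that fit several genes, and the way the TPM were made are not given in the sources used here. The TPM totals ran from 995020 to 996531, and no mitochondrial gene is listed in them. Per gene, log2(TPM/CPM) sloped by -0.66 on log2 exonic length over 10649 genes.

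Counts of the 10 course libraries were fitted together with edgeR 4.0.16 in R 4.3.3 (TMM, filterByExpr, quasi-likelihood test) with condition and time point as factors, and, for slopes, with hours in each condition. Each SE printed for these edgeR tests is the absolute log2 difference divided by the square root of the F statistic of the test. DESeq2 1.42.0 was an alternative. The design had foreseen limma for values that are not counts, so the 4 TPM libraries were tested with limma 3.58.1 on log2(TPM + 1), where a gene was kept if 2 or more libraries had 1 TPM or more of it. Calls used a Benjamini-Hochberg adjusted p of 0.05 over all genes tested. Pairs of single libraries were compared as CPM with 0.5 CPM added, with a 2-fold limit, over genes with a mean of at least 1 CPM, and with exact 95% intervals (Poisson for a level, binomial for a ratio of 2 counts) that cover counting error only. Fold values printed with an interval are plain CPM ratios. In simulated counts the vitamin C test over the course recovered 80% of genes changed 2-fold and 94% of those changed 4-fold (14594 genes), and the sorted-cell test recovered 0% of both.

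The 39 genes, their roles, the other gene lists and the markers were chosen with earlier results of these data known. Any of the 39 could be named. Values in every course library are given for those called over the course and for up to 3 per role with the highest CPM in suspended cells at 60 h, those called are also given in the sorted libraries, and up to 4 genes are named per other list, by smallest p or highest CPM. GATA2/eGFP-negative cells were not analysed here. Gene positions and exon overlaps come from GENCODE release 29. Alternatives were other normalizations and tools, other filters, added constants and time scales, a replicate block and each library left out in turn.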

Additional observations from a re-analysis of the deposited data

How the results depend on the processing

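The 12 leukocyte genes called higher with vitamin C over the course stayed between 9 and 15 when each of the 10 libraries was left out in turn, with 485 to 1167 genes called in all. Of the 12, 9 were called in all 10 of those fits. With the time point as a factor, a library whose partner at that time is left out no longer adds to the difference. The 10 fits are therefore not separate checks, since leaving out either library of a time takes out much the same values. Without a filter on low counts 1591 genes were called, and without the time factor 28 genes and 1 leukocyte gene, PTPN6. Along the hours with vitamin C, where 215 genes and 3 leukocyte genes were called, DESeq2 called 668 and 6, no filter 438 and 5, and hours replaced by their ranks 64 and 1. Without the 0 h pair 1811 genes were called, with 11 leukocyte genes higher and 1 lower (CD44 at -0.90, the reverse of its sign over all times). Leaving out single libraries gave 1 to 588 genes and 0 to 5 leukocyte genes. Along the hours without vitamin C, where 614 genes and 0 leukocyte genes were called, DESeq2 called 1240 genes, with 2 leukocyte genes higher and 1 lower. Ranks gave 1 lower, and leaving out the 0 h pair gave 2523 genes, with 1 leukocyte gene higher and 3 lower. Single libraries left out gave 134 to 999 genes, with 0 to 1 leukocyte gene higher and 0 to 1 lower. The difference in slope had 11 calls by DESeq2 and 0 in every fit that left out a library. The causes of these shifts were not tested.

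In sorted cells, leaving out a library gave 0 to 1 calls over all genes, and the grouping by the descriptions gave 156, with 0 among the 39. With the replicate number as a block, 0 genes were called. Same-numbered libraries deviated together (correlation 0.56 across 14421 genes) and the first principal component, with 63.7% of the variance, separated the numbers, but 2 pairs with a shared number only do not show a pairing. In the course, the pairing of the conditions by time point is part of the test itself, and the fit without the time factor is the one given above.

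With 5 CPM added in place of 0.5, 20 of the 25 genes stayed at least 2-fold higher in suspended than in adherent cells. Of all 15683 genes, 1014 were then higher and 1363 lower, where 0.5 CPM had given 2049 and 2359. Between 96 and 60 h, 7 of the 10 stayed, without ARHGAP15, CD48 and CYBB. Of all 15486 genes, 457 were then higher and 767 lower, where 0.5 CPM had given 1006 and 1867. Genes with a few counts, such as PTPRC, CYBB, SRGN before 96 h and EVI2B, are limited by depth.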
